A study of Homo sapiens with 6 samples.

Results

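The genes described here are C1R, C1S, C3, CFB, CD46, CD55 and CD59, which encode components of the complement system and its membrane regulators. They were taken by gene symbol, and all 7 were found among the 20802 genes that were measured. Expression was measured in 6 libraries of MCF10A, a cell line established from benign human breast epithelium, by Ion AmpliSeq Transcriptome sequencing. This assay copies 1 short stretch of each transcript (an amplicon) by PCR of the cDNA, and the reads of each amplicon are counted. WT is the parental line. The eGFP line is the control that stably overexpresses eGFP from the plasmid pIRES2eGFP, and the GIRK1 line stably overexpresses KCNJ3, the gene of the potassium channel subunit GIRK1, from the same bicistronic plasmid together with eGFP. The eGFP and GIRK1 lines were both transfected with Lipofectamine, selected with G418 and sorted for fluorescence, and the WT line was not. The methods do not state that either line is 1 clone. Each line had 2 libraries, and nothing in the labels states that they came from separate cultures, so that the p-values measure the spread between these libraries, which may be technical. The names of the deposited data give the GIRK1 libraries a tag that the WT and eGFP libraries do not carry. If the tag stands for a run, run and line cannot be told apart.

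The complement system is a cascade of plasma proteins that marks cells and microbes for removal. In the classical pathway the serine proteases C1r and C1s sit on C1q and are activated when it binds its target, and they then cleave C4 and C2. C3 is the protein at which all pathways meet, and factor B, the product of CFB, supplies the protease of the alternative pathway C3 convertase. CD46, CD55 and CD59 are held on the cell surface and protect the cell's own membrane. CD46 is a cofactor for the inactivation of C3b and C4b, CD55 speeds the decay of the convertases, and CD59 blocks assembly of the membrane attack complex. Most plasma complement is made in the liver, but epithelial cells also transcribe several of these genes, and C1R, C1S, C3 and CFB are known to respond to interferons and inflammatory cytokines.

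In the GENCODE annotation of GRCh38, C1S lies on the plus strand of chromosome 12 from 6988259 to 7071032 and C1R on the minus strand from 7080199 to 7092607, with 9166 bases between them. C1R overlaps its relative C1RL, which lies on the same strand from 7089587 to 7109273. CFB lies on the plus strand of chromosome 6 from 31945650 to 31952084 and overlaps the end of C2, its paralog of the classical pathway. C3 lies on the minus strand of chromosome 19 from 6677704 to 6730562. CD55 and CD46 lie on the plus strand of chromosome 1, from 207321376 to 207386804 and from 207752057 to 207795513. CD59 lies on the minus strand of chromosome 11 from 33703010 to 33736491. The amplicons of the 7 genes were 96 to 109 bases long, and their GC content ran from 47.9% for CD46 to 67.6% for C3.

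The 250 bases before the RefSeq transcription start (GRCh38.p14) were read for the members with an entry, which were C1R, CFB, CD46, CD55 and CD59. Shown are the windows of C1R at chr12:7092446-7092695 on the minus strand and of CFB at chr6:31945845-31946094 on the plus strand, as the genes that rose, and of CD55 at chr1:207321428-207321677 on the plus strand, as a gene whose groups overlapped. All are written 5′ to 3′, each ends at the base before the start, and capitals mark matches to the motifs named after them. Of the GENCODE transcripts, 6 of 17 for C1R, 3 of 14 for CFB and 4 of 14 for CD55 reach into these windows.
C1R: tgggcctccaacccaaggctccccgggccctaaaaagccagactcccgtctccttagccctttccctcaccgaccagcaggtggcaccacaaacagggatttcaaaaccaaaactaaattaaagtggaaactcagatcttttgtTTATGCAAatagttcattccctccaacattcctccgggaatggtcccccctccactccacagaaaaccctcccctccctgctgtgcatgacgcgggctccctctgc
CFB: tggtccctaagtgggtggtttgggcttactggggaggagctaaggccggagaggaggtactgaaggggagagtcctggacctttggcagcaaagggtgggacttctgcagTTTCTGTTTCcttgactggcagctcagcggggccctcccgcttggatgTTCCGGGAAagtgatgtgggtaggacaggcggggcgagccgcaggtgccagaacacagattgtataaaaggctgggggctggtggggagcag
CD55: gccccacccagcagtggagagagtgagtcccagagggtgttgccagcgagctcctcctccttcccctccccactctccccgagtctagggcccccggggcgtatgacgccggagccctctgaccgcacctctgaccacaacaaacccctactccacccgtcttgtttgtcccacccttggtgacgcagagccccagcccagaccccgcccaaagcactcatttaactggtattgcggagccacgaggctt
4 motifs were searched on both strands, with N for any base: the core of the interferon-stimulated response element (GAAA and GAAA with NN between them), TTCNNNGAA, the form bound by STAT dimers, a form bound by NF-kB (GGGA and TTCC with NN between them) and TTGCNNAA, a form bound by C/EBP factors. The CFB window held the response element core on its opposite strand, 140 to 131 bases before the start, and TTCNNNGAA, 92 to 84 bases before it. Of 35116 RefSeq windows of the same length, 3.02% held the former and 6.57% the latter. The C1R window held TTGCNNAA on its opposite strand, 106 to 99 bases before the start, as did 9.05% of all windows. The NF-kB form, present in 1.40% of all windows, was found in none of the members' windows, and no motif was found in the windows of CD46 and CD55. A further C1R window, at a start nearer to the gene's body, held TTCNNNGAA and TTGCNNAA. Of 4 CD59 windows, 2 that overlap held the same single match to TTCNNNGAA, and 1 other held TTGCNNAA. These are matches of letters and were not tested as sites.

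The libraries held 2506120 and 16040556 reads for WT replicates 1 and 2, 5126930 and 10233974 for eGFP and 11107309 and 10346572 for GIRK1. The smallest level that this depth can show, taken as 3 reads, was 0.187 to 1.20 RPM (the read count scaled to the library's total). Intervals quoted with RPM values are exact (Clopper-Pearson) 95% intervals and cover counting error only. The library labelled WT replicate 1 stood apart from the other 5. Over 9212 genes the SD of its log2 ratio to them was 1.70 to 1.74, while it was 0.31 between WT replicate 2 and eGFP replicate 2, 0.32 between the GIRK1 libraries and 0.62 between the eGFP libraries. WT replicate 1 went against its label: KRT5, a basal keratin, had 2 reads and KRT14 had 0, whereas ESR1, the estrogen receptor, had 481 reads, TFF1 had 12796 and KRT19 had 2315, and ESR1, TFF1 and KRT19 were at 0 in each of the other 5 libraries. In those 5 libraries KRT5 had between 41922 and 61946 reads. The TP63 amplicon was at 0 in all 6. WT replicate 1 also had 48 reads (19.2 RPM) of KCNJ3, which was at 0 in the other control libraries. GIRK1 was therefore compared with eGFP and with WT replicate 2, and the values of WT replicate 1 are given apart.

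KCNJ3 was read 2408 times in GIRK1 replicate 1 (217 RPM) and 3677 times in replicate 2 (355 RPM), with 0 reads in the eGFP libraries and WT replicate 2. Its mean in GIRK1 was 489-fold above the highest control floor of 0.585 RPM. The exact 95% upper limit of these controls reached 0.720 RPM, so that 489-fold is no strict lower bound.

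Compared with eGFP, C1R, C1S and CFB rose in the GIRK1 line, by 3.56, 3.29 and 2.97 on the log2 scale, and no member fell. CD46 and CD55 overlapped between the lines, and C3 was lower in both GIRK1 libraries without passing the test. CD59 had too few reads to be tested, so that 6 of the 7 members passed the filter on low counts. Of these, 3 were called higher and 0 lower by edgeR's quasi-likelihood test (adjusted p below 0.05), against 0.756% of all 11779 genes tested called higher and 0.840% called lower (1.60% in all). The members' median log2 fold change was 1.52, and that of all genes tested was 0.02. Only C1R and C1S were called when GIRK1 was compared with the 3 controls together (eGFP with WT replicate 2), where 0.799% of 11389 genes were called higher and 1.21% in either direction. Against WT replicate 2 alone, which is 1 library whose spread is taken to be that of the other groups, 0 of 6 members were called by edgeR, where 0.229% of 11779 genes were called in either direction (0.195% higher and 0.0340% lower), 869 at an unadjusted p below 0.05. These comparisons share the GIRK1 libraries and, in part, the controls. Since whole cultures were measured, more cells that express a gene and more RNA per cell cannot be told apart.

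**Figure D1:**
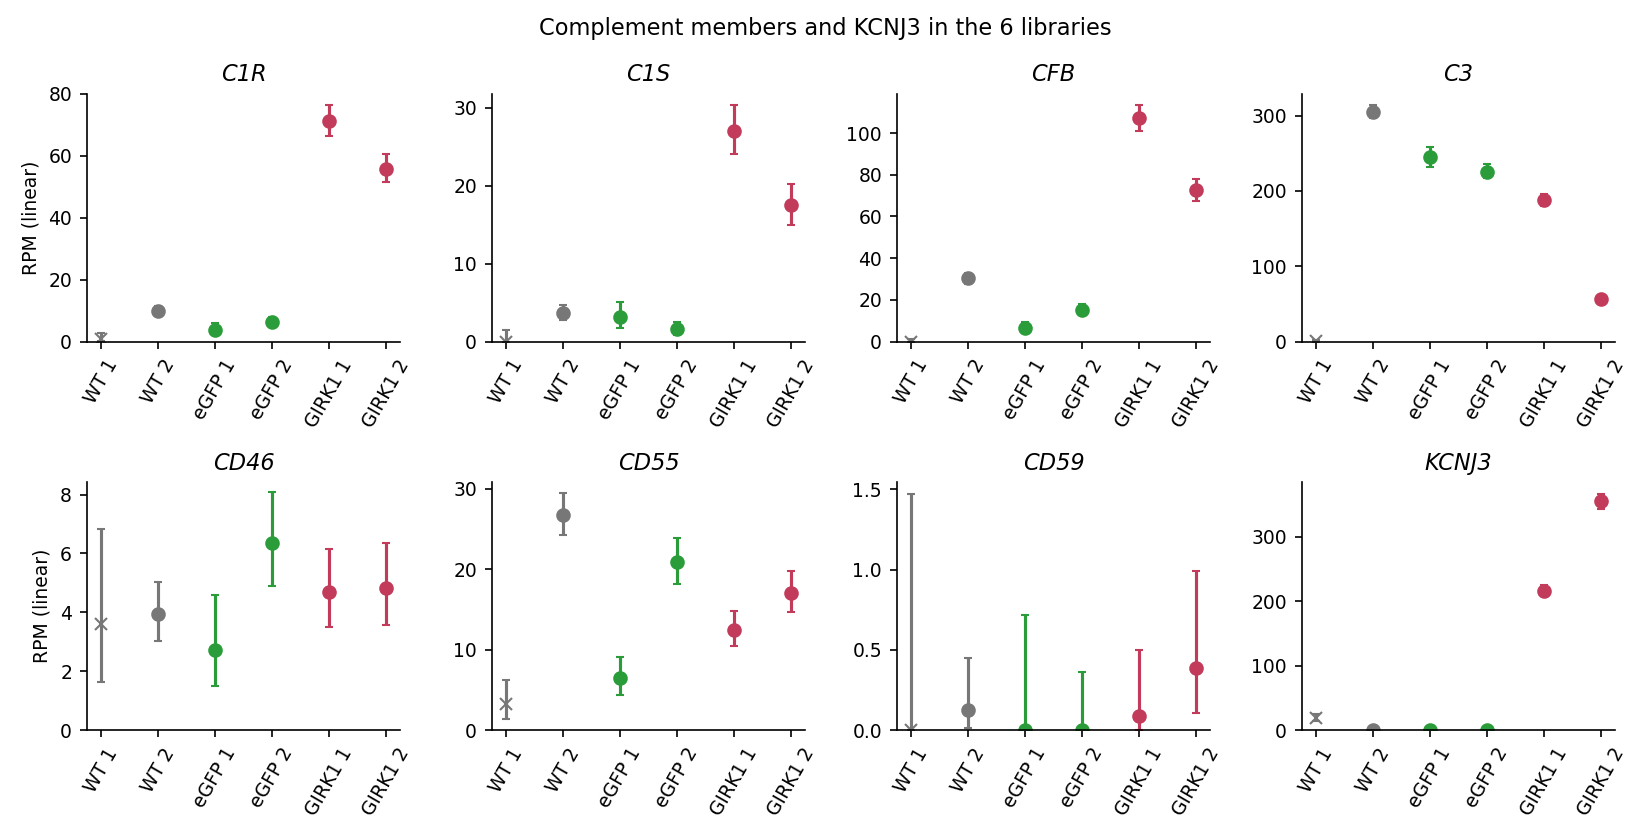
RPM on linear axes, each starting at 0, for the 7 complement genes and KCNJ3 in the 6 libraries, with bars for the exact 95% counting interval. WT replicate 1 is drawn as a cross. C1R, C1S and CFB lie highest in both GIRK1 libraries, while C3 is at 188 and 57.1 RPM there and at 226 to 305 RPM in the 3 controls.

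C1R, the protease that starts the classical cascade by cleaving C1s, had 71.1 RPM (interval 66.3 to 76.3) and 55.9 RPM (51.4 to 60.6) in GIRK1 replicates 1 and 2. It had 3.90 and 6.35 RPM in eGFP, 9.85 RPM in WT replicate 2 and 0.798 RPM (2 reads) in WT replicate 1. Both GIRK1 libraries lay above every control, the lower of them 5.67-fold above the highest control, and the 3 controls themselves spanned 2.52-fold. The log2 fold change was 3.56 ± 0.31 (SE) against eGFP (edgeR, adjusted p = 0.00380), 2.71 ± 0.37 against WT replicate 2 (adjusted p = 0.0565) and 3.18 ± 0.33 against the 3 controls (adjusted p = 0.00777). C1R is thus called in the comparisons that hold eGFP libraries, and its interval against WT replicate 2, 1.82 to 3.59, lies above 0 before adjustment over all genes. The overlapping gene C1RL, given for its position and not by the rule for named genes, had 432 and 327 reads in GIRK1, 84 and 229 in eGFP and 431 in WT replicate 2. Its log2 fold change against eGFP was 0.82 ± 0.25 and was not called (edgeR, adjusted p = 0.158).

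C1S, the protease that cleaves C4 and C2, had 27.1 RPM (interval 24.1 to 30.3) and 17.5 RPM (15.0 to 20.2) in GIRK1. It had 3.12 and 1.56 RPM in eGFP, from 16 reads in each library, 3.62 RPM in WT replicate 2 and 0 reads in WT replicate 1. As for C1R, the GIRK1 libraries were the highest, and the lower of them exceeded the highest control by 4.84-fold. C1S rose by 3.29 ± 0.45 on the log2 scale against eGFP (edgeR, adjusted p = 0.0244) and by 2.98 ± 0.39 against the 3 controls (adjusted p = 0.0178). Against WT replicate 2 the change was 2.64 ± 0.54 and was not called (edgeR, adjusted p = 0.213). The calls of C1R and C1S against the 3 controls were lost without GIRK1 replicate 1, without GIRK1 replicate 2 and without eGFP replicate 2, while their log2 fold changes stayed between 2.96 and 3.56 for C1R and between 2.65 and 3.29 for C1S. Against WT replicate 2, leaving out either eGFP library kept the log2 fold changes at 2.70 for C1R, 2.64 for C1S and 1.58 for CFB. All 3 were then called, as were many more of all genes than in the main fit. The spread in these fits rests on the GIRK1 libraries alone, so these calls add nothing to the comparison with WT.

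CFB, the alternative pathway protease, had 107 RPM (interval 101 to 113) and 72.7 RPM (67.6 to 78.1) in GIRK1. It had 6.63 and 15.3 RPM in eGFP, 30.3 RPM in WT replicate 2 and 0 reads in WT replicate 1. Its controls spanned 4.57-fold, more than those of C1R or C1S, and the lower GIRK1 library was 2.40-fold above WT replicate 2, the highest of them. The log2 fold change was 2.97 ± 0.39 against eGFP (edgeR, adjusted p = 0.0212). It was 2.32 ± 0.50 against the 3 controls (adjusted p = 0.0817) and 1.59 ± 0.47 against WT replicate 2 (adjusted p = 0.451), neither of them called. Without eGFP replicate 2 the value against eGFP was 3.65. Against the 3 controls CFB was called without eGFP replicate 1, at 1.97 (edgeR, adjusted p = 0.00498), where 984 of 11274 genes were called. It was called with no filter (edgeR, adjusted p = 0.0193), where 374 of 15206 genes were. The DESeq2 test called it too (adjusted p = 0.000368), with 798 of 11389 genes. Without eGFP replicate 2 it was not called, at 2.22 (edgeR, adjusted p = 0.281). With 1 GIRK1 library left, the value was 2.05 without replicate 1 and 2.57 without replicate 2. Leaving out WT replicate 2 gives the comparison with eGFP again, at 2.97, and is no further setting.

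C3, the central component, went the other way from the proteases. It had 188 RPM (interval 180 to 196) in GIRK1 replicate 1 and 57.1 RPM (52.6 to 61.9) in replicate 2, against 245 and 226 RPM in eGFP, 305 RPM in WT replicate 2 and 0.399 RPM (1 read) in WT replicate 1. Both GIRK1 libraries lay below every control, but they differed from each other by 3.29-fold, while the 3 controls spanned 1.35-fold and the lowest control was 1.20-fold above GIRK1 replicate 1. The log2 fold change was -0.99 ± 0.49 against eGFP (edgeR, adjusted p = 0.325), -1.30 ± 0.57 against WT replicate 2 (adjusted p = 0.687) and -1.11 ± 0.45 against the 3 controls (adjusted p = 0.259). Without GIRK1 replicate 1 the value against eGFP was -2.07 and was called (edgeR, adjusted p = 0.0195), so that 1 library decides the call. The value was then -2.38 against WT replicate 2, which was called as well, and -2.18 against the 3 controls, which was not called. Without GIRK1 replicate 2 the value was -0.38 against eGFP (edgeR, adjusted p = 0.920), -0.69 against WT replicate 2 and -0.49 against the 3 controls, and none of these was called.

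C1R, C1S, CFB and C3 were all higher in GIRK1 replicate 1 than in replicate 2, by 1.27-, 1.55-, 1.47- and 3.29-fold, whereas KCNJ3 was 1.64-fold higher in replicate 2. Over the 7 members, the RPM of both GIRK1 libraries lay above all 3 controls for 3 genes and below them for 1, and 21.6% and 19.5% of all genes tested did so.

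**Figure D2:**
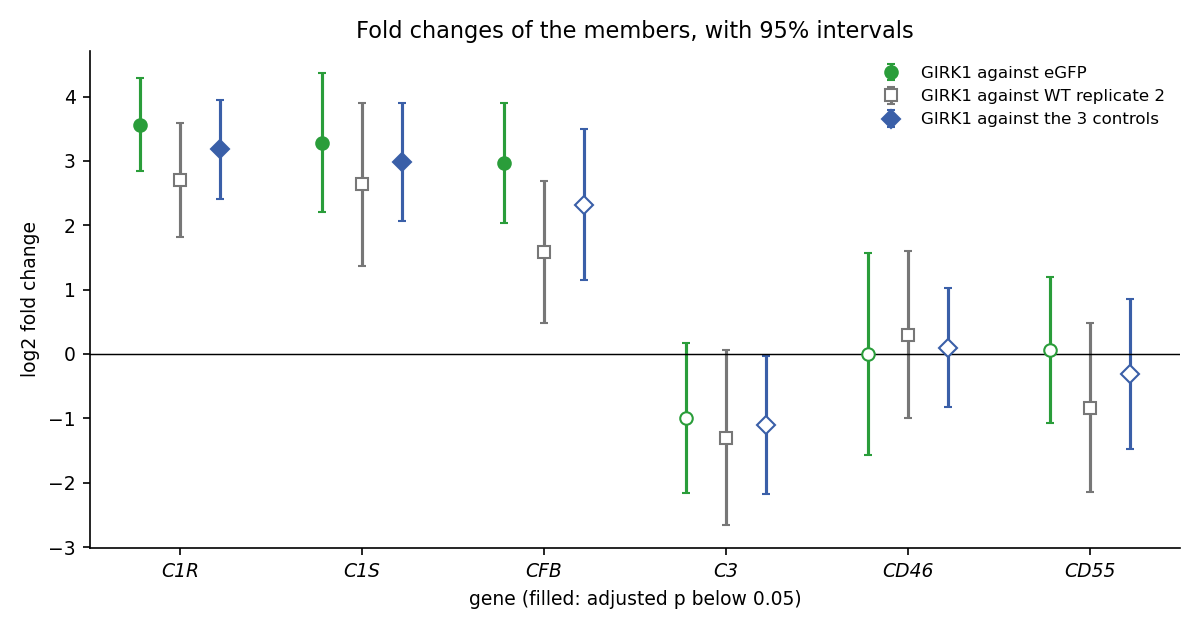
Log2 fold change of the 6 tested members in GIRK1 against eGFP, WT replicate 2 and the 3 controls, with 95% intervals that are not adjusted for the number of genes; filled symbols have an adjusted p below 0.05. C1R, C1S and CFB lie above 0 in every comparison, and filled symbols are seen for all 3 against eGFP and for C1R and C1S against the 3 controls.

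Of the membrane regulators, CD55, the decay accelerator, had 12.5 and 17.1 RPM in GIRK1, 6.44 and 20.9 RPM in eGFP, 26.8 RPM in WT replicate 2 and 3.19 RPM in WT replicate 1. The GIRK1 values lay between those of the eGFP libraries, which differed by 3.25-fold. The log2 fold change against eGFP was 0.06 with an interval of -1.07 to 1.20 (edgeR, adjusted p = 0.953), and against the 3 controls -0.32, from -1.48 to 0.85 (adjusted p = 0.769). Against WT replicate 2 it was -0.83, from -2.14 to 0.48 (edgeR, adjusted p = 0.817). Without eGFP replicate 2 the value against eGFP was 1.10, and without eGFP replicate 1 it was -0.48. Each of these fits left 1 eGFP library. Without eGFP replicate 2 far more of all genes were called than in the main fit, so a call made there is not read as a result about CD55.

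CD46, the cofactor for C3b inactivation, had 4.68 and 4.83 RPM in GIRK1, 2.73 and 6.35 RPM in eGFP, 3.93 RPM in WT replicate 2 and 3.59 RPM in WT replicate 1. These values rest on 9 to 65 reads and overlap, also for WT replicate 1. The log2 fold change against eGFP was 0.00 with an interval of -1.57 to 1.57 (edgeR, adjusted p = 1.0), and against the 3 controls 0.10, from -0.82 to 1.02 (adjusted p = 0.917). Against WT replicate 2 it was 0.30, from -1.002 to 1.60 (edgeR, adjusted p = 0.952). The intervals of both regulators leave room for a 2-fold difference in either direction against eGFP, so that a difference of this size was not detectable.

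CD59, the inhibitor of the membrane attack complex, had 1 and 4 reads in GIRK1, 0 in both eGFP libraries, 2 in WT replicate 2 and 0 in WT replicate 1. At most 0.387 RPM was thus read from this amplicon, and no level or difference can be given.

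Genes with a profile like that of the members were sought among the 9288 genes that averaged 50 reads or more over the 5 libraries, by the Euclidean distance between profiles of log2(RPM + 1) centred on their mean. For C1R they were PLSCR1, TYMP and LCN2, at distances of 0.56, 0.57 and 0.60. PLSCR1, a phospholipid scramblase, had 285 and 291 RPM in GIRK1, 20.1 and 45.8 RPM in eGFP and 60.2 RPM in WT replicate 2. For C1S they were LCN2, PODXL and USP18 (0.67, 0.73 and 0.78), of which LCN2, a secreted siderophore-binding protein, had 38.9 and 34.8 RPM in GIRK1 and 3.71 to 7.29 RPM in the 3 controls. For CFB they were DCN, ODF3B and PLSCR1 (0.55, 0.69 and 0.73). C3 stood with A4GALT, KCTD17 and PLLP (0.53, 0.53 and 0.58), which were all lowest in GIRK1 replicate 2. CD55 stood with C9orf91, C19orf54 and PYCR1 (0.26, 0.26 and 0.29), all lowest in eGFP replicate 1.

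Among the members, CFB ranked 12 and C1S ranked 16 of 9287 genes by nearness to C1R, and C1R ranked 8 by nearness to CFB. C3 ranked 9080 by nearness to C1R. CD46, with a mean of 48.8 reads, and CD59 were not ranked. The profiles rest on 5 libraries that differ in depth, and likeness is a description only.

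**Figure D3:**
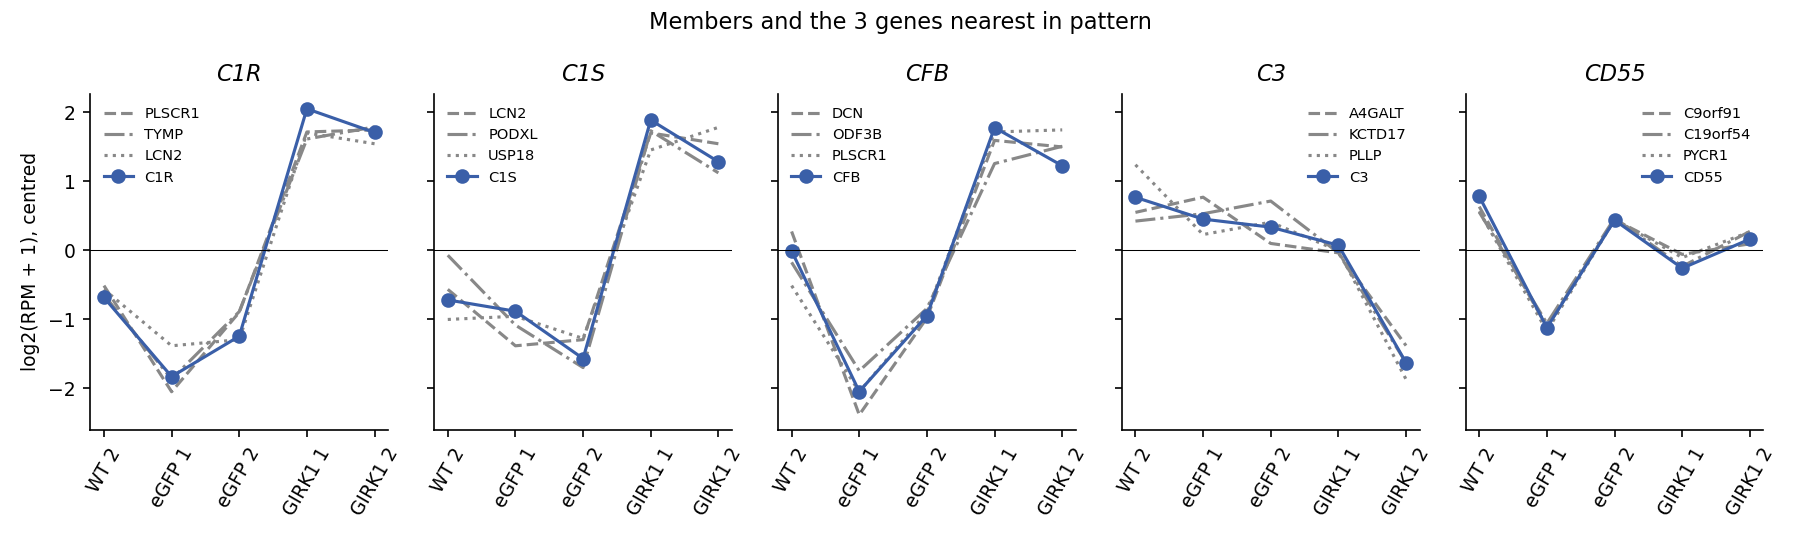
Log2(RPM + 1), centred on its mean over 5 libraries, for C1R, C1S, CFB, C3 and CD55 (solid lines with points) and the 3 genes nearest to each (grey lines). C1R, C1S and CFB are highest in the GIRK1 libraries, C3 is lowest in GIRK1 replicate 2 and CD55 in eGFP replicate 1.

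Of 48 other complement genes, 47 were measured, and 39 of these had fewer than 10 reads in each of the 5 libraries. C1QA, C1QB and C1QC, which encode the recognition unit that C1r and C1s act on, had 0 reads in all 6 libraries, as did C4A and C4B, the substrate of C1s, and C2 had 0 to 2 reads. The lectin pathway genes MASP1, MBL2, FCN1, FCN2 and FCN3 were at 0 as well. CFD, the protease that activates factor B, had 0 to 5 reads, and CFP, which encodes properdin, had 2 to 13. Of the terminal components, C6, C7, C8A, C8B and C9 were at 0. Amplicons at 0 were not checked against a sample that expresses the gene.

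The filter on low counts was passed by 6 of the 47 genes. ITGB2, the beta chain of complement receptors 3 and 4, was called lower in GIRK1, and 0 were called higher. It had 2 reads in each GIRK1 library, which is under the floor of 3 reads. It had 80 and 46 reads in eGFP, 98 in WT replicate 2 and 1 in WT replicate 1. ITGB2 thus passed the filter only through its reads in the controls, and no conclusion is drawn from its call. The counting interval of the ratio of eGFP to GIRK1 ran from 16.8 to 164, and no single ratio is given. The call was made against eGFP (edgeR, adjusted p = 0.0359) and against the 3 controls (adjusted p = 0.0425), where 0.413% of genes were called lower. For the ratio of WT replicate 2 to GIRK1 that interval ran from 12.4 to 123, and ITGB2 was not called (edgeR, adjusted p = 0.186). ITGAM and ITGAX, its partner alpha chains in those receptors, had at most 6 reads in any library.

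C5, the precursor of the C5a peptide, had 8.64 and 7.44 RPM in GIRK1 and 3.32 to 6.98 RPM in the 3 controls. CLU, which encodes clusterin, an inhibitor of the terminal complex, had 22.6 and 26.9 RPM in GIRK1 and 18.5 to 20.8 RPM in the 3 controls. C1QBP, a mitochondrial and cell surface protein that binds C1q, was the most abundant of the list, at 696 and 774 RPM in GIRK1 and 632 to 917 RPM in the 3 controls. C5, CLU and C1QBP were not called in any of the comparisons.

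**Figure D4:**
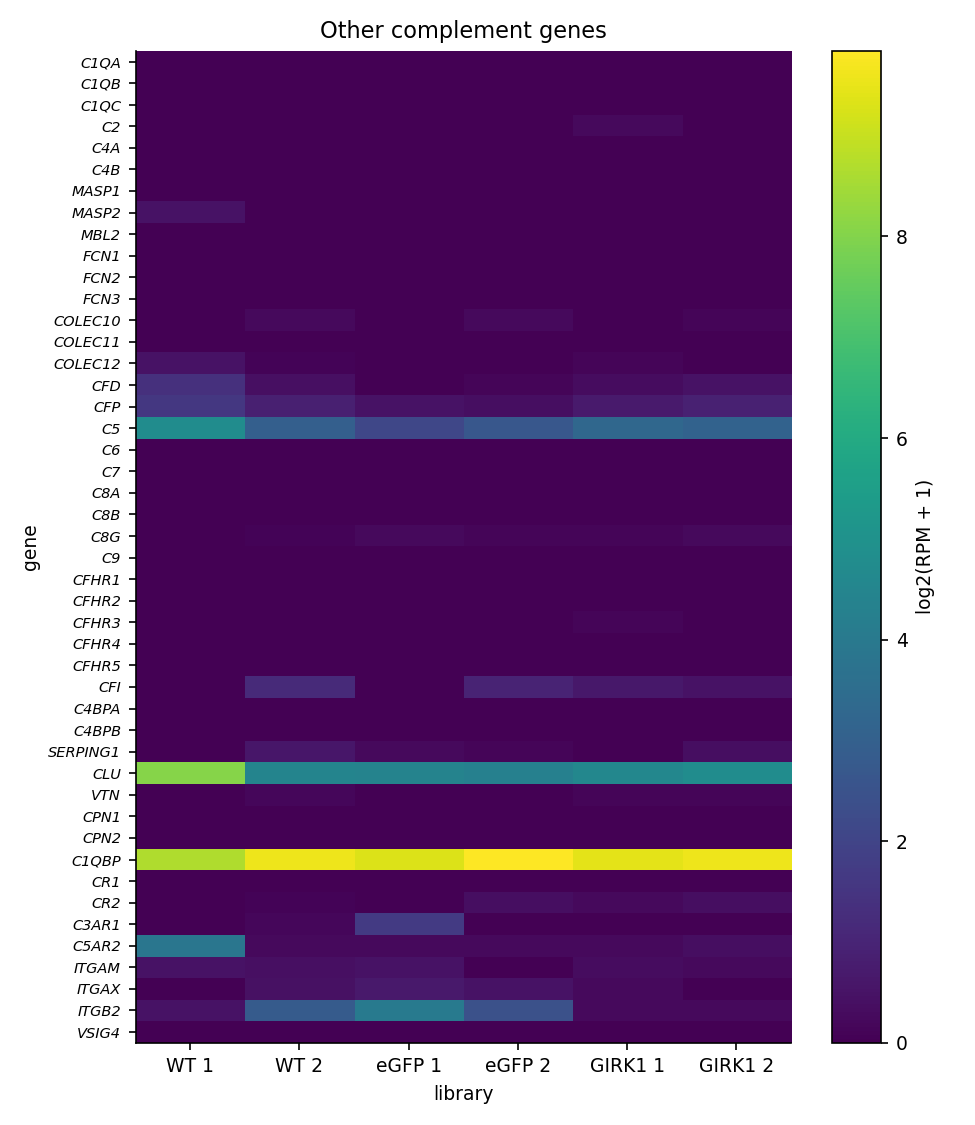
Log2(RPM + 1) of 46 of the other complement genes measured (rows) in the 6 libraries (columns), on a colour scale that starts at 0. Most rows are at or near 0, C1QBP is highest in all 6 libraries, and ITGB2 is near 0 in both GIRK1 libraries.

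Of a list of 12 genes that are induced by interferons, 9 rose in GIRK1 against eGFP and 3 did not pass the test, where 0.756% of all genes tested were called higher. Against the 3 controls 9 rose and 3 did not pass, beside 0.799% of all genes, and against WT replicate 2 it was 6 and 6, beside 0.195%. The list's median log2 fold change was 2.76 against eGFP, where that of all genes tested was 0.02. Its summed level was 8853 and 12644 RPM in GIRK1, 313 and 325 RPM in eGFP, 335 RPM in WT replicate 2 and 298 RPM in WT replicate 1. IFI6, its most abundant gene in GIRK1, had 6613 and 9858 RPM there and 15.6 to 35.9 RPM in the 3 controls. IRF9, a subunit of the complex that binds the response element, had 110 and 151 RPM in GIRK1 and 13.0 to 15.6 RPM in the 3 controls. IRF1, a factor that also binds such elements, had 27.7 and 23.4 RPM in GIRK1 and 10.2 to 16.2 RPM in the 3 controls, and was not called. IFI6, IRF9, IFIT1, ISG15, IRF7, STAT2, TAP1 and PSMB9 were among those called against eGFP. Against the 3 controls PSMB8 was called and PSMB9 was not. Of the 12 genes, 10 (all but IRF1 and PSMB8) were higher in GIRK1 replicate 2 than in replicate 1, the opposite order to C1R, C1S and CFB. The part of these genes in the members' values was not tested.

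**Figure D5:**
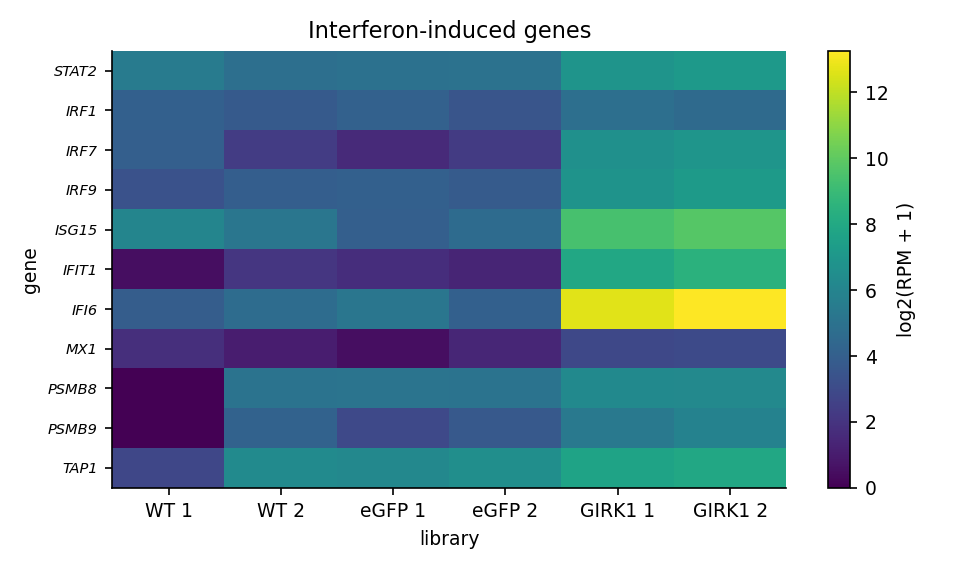
Log2(RPM + 1) of 11 of the interferon-induced genes (rows) in the 6 libraries (columns), on a colour scale that starts at 0. All 11 are higher in both GIRK1 libraries than in WT replicate 2 and the eGFP libraries, and IFI6 has the highest level in GIRK1.

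Of 14 genes of the NF-kB, IL-1 and IL-6 pathways, which also act on C3 and CFB, 13 were tested, 0 rose and 2 fell against eGFP, where 0.840% of all genes tested were called lower. Against the 3 controls 1 of 12 tested fell, IL1A, beside 0.413% of all genes. Against WT replicate 2, 0 of 13 rose and 0 fell, beside 0.229% of all genes called in either direction. IL1B, a cytokine, had 4.50 and 3.77 RPM in GIRK1, 190 and 99.4 RPM in eGFP and 17.1 RPM in WT replicate 2, a change of -5.18 ± 0.43 on the log2 scale against eGFP (edgeR, adjusted p = 0.00372). It was not called against the 3 controls (edgeR, adjusted p = 0.0907) or against WT replicate 2, at -2.02 ± 0.44 (adjusted p = 0.292). IL1A had 30.0 and 34.2 RPM in GIRK1, 85.2 and 200.0 RPM in eGFP and 124 RPM in WT replicate 2, and was called against eGFP (edgeR, adjusted p = 0.0460) and the 3 controls (adjusted p = 0.0453) but not against WT replicate 2 (adjusted p = 0.291). CEBPB and CEBPD, the C/EBP factors of the list, and IL6 were not called. The list's median was -0.61 against eGFP.

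Cell type markers were read beside these values. In the 5 libraries, 9 of the 10 basal mammary markers were detected, with a summed level between 8912 and 16006 RPM, and KRT5 or KRT17 was the most abundant. KRT17 rose by 2.17 ± 0.22 on the log2 scale against eGFP (edgeR, adjusted p = 0.00764) and was not called against WT replicate 2 (adjusted p = 0.181). Of 8 fibroblast markers, COL1A2, COL3A1, PDGFRA and THY1 were at 0 in the 5 libraries, and the summed level of the list was 31.9 and 33.5 RPM in GIRK1 and 8.60 to 13.7 RPM in the 3 controls. In GIRK1 that sum was mostly DCN, which encodes the proteoglycan decorin (27.0 and 25.2 RPM), while in eGFP the most abundant gene of the list was COL1A1 (9.17 and 4.50 RPM). DCN had 300 and 261 reads in GIRK1, 4 and 38 in eGFP and 164 in WT replicate 2, a change of 3.37 ± 0.51 against eGFP (edgeR, adjusted p = 0.0328). It was not called against the 3 controls, at 2.29 ± 0.66 (edgeR, adjusted p = 0.145), or against WT replicate 2, at 1.37 ± 0.56 (adjusted p = 0.661). Of 8 macrophage markers, PTPRC, LYZ, AIF1 and CD163 were at 0, the most abundant was CD68, and the sum was 36.1 and 32.4 RPM in GIRK1 and 22.5 to 49.0 RPM in the 3 controls. The part of DCN and KRT17 in the members' values was not tested. The 7 hepatocyte markers had at most 3 reads each. The luminal list had 869 and 829 RPM in GIRK1 and 531 to 1029 RPM in the 3 controls, mostly XBP1 and KRT18, and 0 of its 6 tested genes were called by edgeR in the 3 comparisons.

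When WT replicate 1 was put into the group WT, the log2 fold changes against eGFP were 3.59 for C1R, 3.23 for C1S and 3.00 for CFB, within 0.1 of those without it, but 0 members were called by edgeR (adjusted p = 0.883, 0.934 and 0.934), and 0 of 11546 genes (606 at an unadjusted p below 0.05). Against the group WT, which then held both libraries, the log2 fold changes were 3.46 for C1R, 3.36 for C1S and 2.51 for CFB. Without WT replicate 1 they were 2.71, 2.64 and 1.59. C3 moved from -1.30 to -0.31 and CD55 from -0.83 to -0.03, and 0 members were called. Kept in the fit as a group of its own, WT replicate 1 left the same 3 members called against eGFP.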

How the data were processed

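The authors sequenced amplicon libraries on an Ion S5 XL, mapped the reads to a reference of amplicons and deposited, for 20812 rows per library, read counts, reads that cover the amplicon (coverage, by strand) and RPM, each count scaled to the library total. The other deposited column used, bases of G or C, gave GC content. The 10 spike-in rows held 0 reads and were left out. How reads of near-identical copies were counted is not given in the sources used here, so C1R, C4A, C4B and other genes with close relatives are less certain. Each amplicon position is on a transcript, and gene positions came from GENCODE by symbol.

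The counts of 5 libraries (GIRK1, eGFP and WT replicate 2) were tested with edgeR 4.0.16 in R 4.3.3 (TMM, filterByExpr, glmQLFit, glmQLFTest, Benjamini-Hochberg over all genes, threshold 0.05). Group means were GIRK1, eGFP and WT, or GIRK1 and the 3 controls. Standard errors came from the F value, and members' RPM values are those of the authors. Alternatives were DESeq2 1.42.0, its size factors, total reads, other filters, covering reads, other library sets, the replicate block and leaving out each library. Scripts were tested on simulated data. The 7 members, the gene lists and the motifs were chosen with earlier results of these data known. Named were the members, KCNJ3, complement genes called or with a mean of at least 50 reads, other list genes called or most abundant, and the 3 genes nearest in profile to each member; other genes named were chosen after their values were seen. 1 of the 48 other complement genes was not matched, and 1 was matched by an older symbol. Some list genes that met the rule are not reported here, though they are part of the counts and sums.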

Additional observations from a re-analysis of the deposited data

Results flagged for a closer look

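WT replicate 1 was kept out of the 3 comparisons, and was added only in the alternatives that use both WT libraries. Of the members, KCNJ3 and the other complement genes named, 3 had a level there whose exact 95% counting interval lay above the intervals of WT replicate 2 and both eGFP libraries. The share of all genes that did so was not counted. WT replicate 1 differed at least 2-fold in either direction from WT replicate 2 at 3616 of 9212 genes, by log2(RPM + 1). Such levels are thus not particular to these 3 genes. KCNJ3 had 48 reads, or 19.2 RPM (interval 14.1 to 25.4), where the other control libraries had 0 reads and an upper limit of at most 0.720 RPM. C5 had 66 reads, or 26.3 RPM (20.4 to 33.5), against at most 6.98 RPM in the other controls. CLU had 663 reads, or 265 RPM (245 to 285), against at most 20.8 RPM. These levels come from the library that went against its label in the keratins and the estrogen receptor, and their cause was not tested.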

How the results depend on the processing

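Each fit was repeated under up to 14 alternatives. Against eGFP, C1R, C1S and CFB kept their direction in all of them and their call in all but that with both WT libraries in one group (0 members called). C3 was called without GIRK1 replicate 1 and CD55 without eGFP replicate 2, where far more of all genes were called too. Each fit left 1 library in that group, so that the number of members called turned on 1 library. Against WT replicate 2, where 0 were called, it was 2 with no filter, 2 with the DESeq2 test (C1R and C1S), 3 with only the groups compared and 1 to 3 when a library was left out. Against the 3 controls, where 2 were called, it was 3 with no filter and with the DESeq2 test (C1R, C1S and CFB), 0 with both WT libraries in one group and 0 to 3 when a library was left out, with 0 without GIRK1 replicate 1, without GIRK1 replicate 2 and without eGFP replicate 2. CD46 and CD55 changed sign. Against eGFP, CD46 was -0.0082 with DESeq2 size factors, -0.00061 with no filter and -0.40 to 0.70 when a library was left out (-0.03 without GIRK1 replicate 2, -0.40 without eGFP replicate 1), and CD55 -0.48 to 1.10 (-0.18 without GIRK1 replicate 2, -0.48 without eGFP replicate 1). Against the 3 controls, CD55 was 0.0342 with both WT libraries in one group and -0.68 to 0.0654 when a library was left out (0.0654 without WT replicate 2), and CD46 -0.0768 to 0.46 (-0.0768 without eGFP replicate 1).

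Of all genes, 188 were called against eGFP, 27 against WT replicate 2 and, against the 3 controls, 91 higher and 47 lower. These counts were 865, 133 and 374 with no filter, 677, 126 and 798 with the DESeq2 test, and 0, 0 and 7 with both WT libraries in one group. With at least 10 reads in every library they were 107 against eGFP and 16 against WT replicate 2, and with only the groups compared 439 against WT replicate 2. Leaving out a library gave 158 to 2997, 34 to 576 and 19 to 984, the highest against eGFP without eGFP replicate 2. With the replicate block they were 549, 77 and 558, the members called 3, 1 (C1R) and 3, and CD55 was 0.0372 against the 3 controls; the numbers are not known to pair the libraries, and the replicate differences of GIRK1 and eGFP correlated at 0.192 across 9288 genes. GIRK1 against WT replicate 2 without that library could not be fitted. Where a call changed, the cause was not tested beyond the fewer libraries or genes of the setting itself. WT replicate 1, at 2506120 reads, limits levels under 1.20 RPM.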
